A study of Mus musculus with 26 samples.

Results

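The leukotriene and prostaglandin synthesis enzymes are a set of 10 mouse genes, Pla2g4a, Alox5, Alox5ap, Lta4h, Ltc4s, Alox12, Alox15, Ptgs1, Ptgs2 and Hpgds, taken by symbol from 54146 genes in the count files. They were measured by RNA sequencing in cultured mouse leukemia cells driven by the fusion oncogene MLL-AF9 (MA9). The MA9+SETDB1 arm (3 libraries) received SETDB1, an enzyme that methylates histone H3 at lysine 9, and the MA9+EV arm (3 libraries) received the empty MSCVpuro vector. Both arms began as lineage-depleted mouse bone marrow infected with MLL-AF9, were kept for 8 to 12 weeks in IMDM containing the cytokines IL-3 and SCF, and had 3 to 6 weeks of puromycin selection. Strain, age and sex of the donor animals are not given in the labels, which call the cells a line, and the labels do not say whether the SETDB1 sequence is of mouse or human origin. The design text calls the libraries biological replicates without saying that they came from separate transductions, so the p-values measure only the spread between these libraries, which may be partly technical. In such bulk samples fewer cells of a type and less RNA per cell cannot be told apart.

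Leukotrienes and prostaglandins are lipid signals made from arachidonic acid, which cytosolic phospholipase A2 (Pla2g4a) frees from membrane phospholipids. In the leukotriene branch, arachidonate 5-lipoxygenase (Alox5) acts with its partner protein FLAP (Alox5ap) to make leukotriene A4. Leukotriene A4 hydrolase (Lta4h) turns this into leukotriene B4, an attractant of neutrophils, and leukotriene C4 synthase (Ltc4s) joins it to glutathione to give the cysteinyl leukotrienes of mast cells, basophils and eosinophils. In the prostaglandin branch the cyclooxygenases (Ptgs1 and Ptgs2) make prostaglandin H2, which terminal synthases such as hematopoietic prostaglandin D synthase (Hpgds) convert further. Alox12 and Alox15 are lipoxygenases that oxidize arachidonate at other positions.

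The libraries held 18070482 to 22561757 gene counts each. Levels are given as CPM, counts per 1e6 of library size scaled by TMM (edgeR's correction for differing RNA composition), and were not set against each other between genes because they are not corrected for transcript length. Replicate 1 stood apart in both arms. Replicates 2 and 3 differed by a chi-square per degree of freedom of 3.39 in MA9+SETDB1 and 4.73 in MA9+EV, against 89.6 to 117 for pairs that include replicate 1 of the same arm and 430 to 714 for pairs across arms. The Setdb1 gene had 475, 605 and 607 CPM in MA9+SETDB1 replicates 1, 2 and 3, against 105, 108 and 109 CPM in MA9+EV, in accord with the labels. By edgeR's quasi-likelihood test over 12986 genes, with an adjusted p threshold of 0.05, 53.5% of genes changed, 27.4% upward and 26.2% downward in MA9+SETDB1. When libraries were scaled by total count alone, 38.1% of the called genes were higher, against 51.1% with TMM, and the median log2 change of all genes moved to -0.24, against -0.01 with TMM.

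Of the 10 enzyme genes, 5 were higher and 3 lower in MA9+SETDB1 by that test, and 2 had too few counts to be tested. The 5 higher genes were Alox5, Alox5ap, Ltc4s, Alox15 and Ptgs2. The 3 lower genes were Lta4h, Ptgs1 and Pla2g4a. Alox12 and Hpgds were the untested ones. Ltc4s, Alox15 and Ptgs2 passed the filter on low counts through the MA9+SETDB1 libraries, where they are higher, so the count of called genes among those tested is a description and carries no weight of its own. Genes whose 3 libraries of one arm all lay on one side of the other arm made up 64.6% of the genes tested, and all 8 tested enzyme genes were among them. The 5 higher enzyme genes were above in every library, as were 32.1% of genes tested, and the 3 lower ones below in every library, as were 32.5%.

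**Figure D1:**
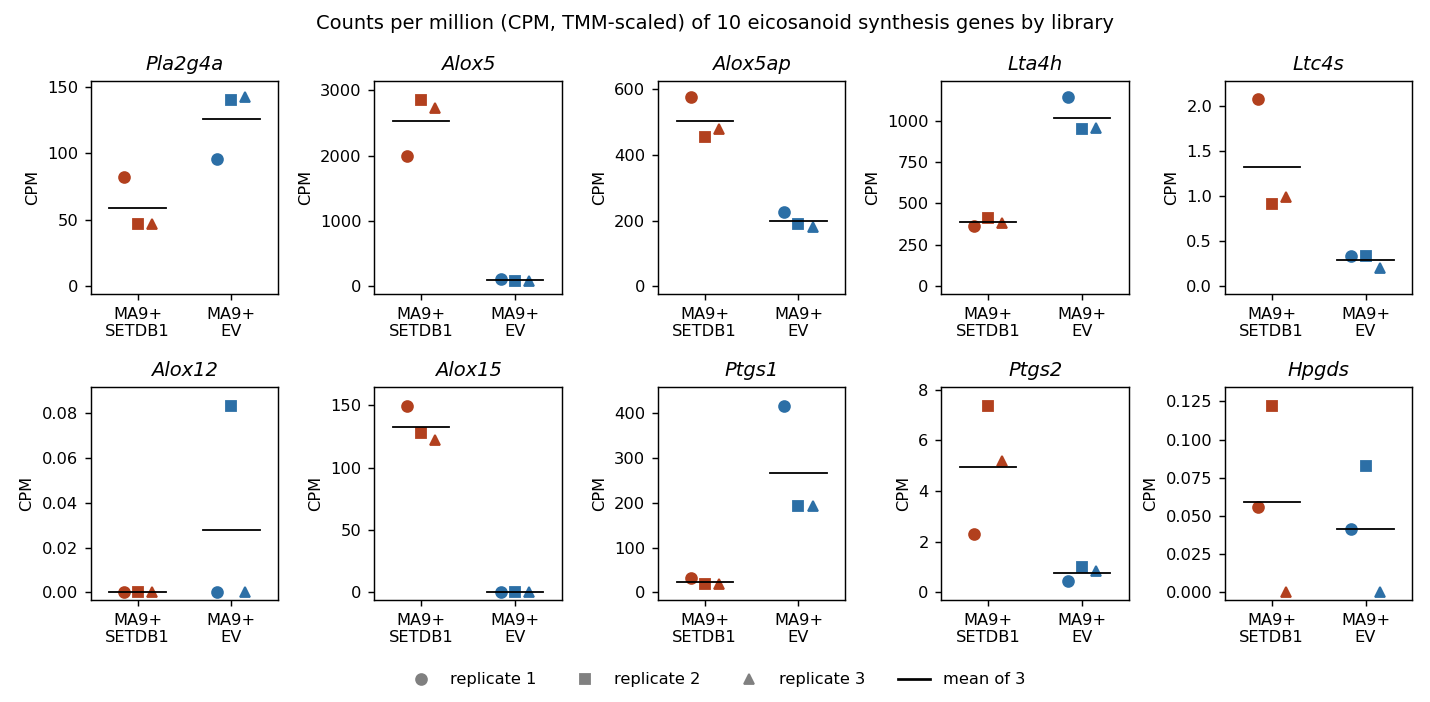
Level of each of the 10 enzyme genes in each library, in CPM on a linear axis of its own for each gene, with MA9+SETDB1 left of MA9+EV, a symbol for each replicate and lines for arm means. Alox5, Alox5ap, Ltc4s, Alox15 and Ptgs2 lay higher in every MA9+SETDB1 library than in any MA9+EV library, and Lta4h, Ptgs1 and Pla2g4a lay lower.

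The arachidonate-releasing enzyme was lower in MA9+SETDB1. Pla2g4a (ENSMUSG00000056220.14, chr1:149829618-149961290, GRCm38) had 82.1, 47.1 and 47.1 CPM in MA9+SETDB1 replicates 1, 2 and 3, against 95.4, 140.2 and 142 CPM in MA9+EV. Every MA9+SETDB1 library was below every MA9+EV library, though the replicate 1 libraries of the arms were much closer to each other than the rest. The log2 change was -1.10 (SE 0.27, edgeR adjusted p = 0.0123). With replicates 2 and 3 of each arm summed into 1 library it was -0.88 and no longer passed (edgeR adjusted p = 0.111).

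Among the leukotriene enzymes, the first step and its partner were higher in MA9+SETDB1. Alox5 (ENSMUSG00000025701.12, chr6:116410071-116461178) had 2000.1, 2854 and 2729 CPM in MA9+SETDB1 replicates 1, 2 and 3, against 118, 84.5 and 84.1 CPM in MA9+EV. The arms did not overlap, and the change was 26.5-fold (log2 4.73, SE 0.24, edgeR adjusted p = 1.69e-05). Alox5ap (ENSMUSG00000060063.9, chr5:149265004-149288153), which presents arachidonate to Alox5, had 575, 453 and 477 CPM in MA9+SETDB1, compared with 226, 189 and 182 CPM in MA9+EV. Here too the arms stood apart, by 2.52-fold (log2 1.33, SE 0.15, edgeR adjusted p = 0.000389).

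The enzymes on the far side of leukotriene A4 moved in opposite directions. Lta4h (ENSMUSG00000015889.8, chr10:93453396-93484896), which makes leukotriene B4, had 362, 412 and 382 CPM in MA9+SETDB1 replicates 1, 2 and 3, against 1140.5, 947 and 957 CPM in MA9+EV. All MA9+SETDB1 libraries were below all MA9+EV libraries, with a log2 change of -1.40 (SE 0.13, edgeR adjusted p = 0.000208). Ltc4s (ENSMUSG00000020377.15, chr11:50236461-50238532), which makes leukotriene C4, had only 37, 15 and 19 counts in MA9+SETDB1, against 8, 8 and 4 counts in MA9+EV, or 1.32 ± 0.648 against 0.288 ± 0.0749 CPM (SD, n = 3 each). The arms did not overlap, and replicate 1 held more than the other MA9+SETDB1 libraries. The change was 4.48-fold (log2 2.16, SE 0.47, edgeR adjusted p = 0.00733).

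Sequences are printed for 4 changed enzyme genes that have a window with a searched motif, as the 250 bases before a transcription start in the GRCm38.p6 RefSeq table, read 5′ to 3′ on the gene's strand. For Alox5 and Ltc4s that start is the last coordinate of the gene's span given here, and for Ptgs2 it is the first. For Ptgs1 it is an internal start, so the window lies within the span. Both strands were searched for the GATA factor motif as GATAA, for the motif bound by AP-1 factors as TGACTCA, for the cyclic AMP response element as TGACGTCA, for the E-box as CACGTG, for the motif of the C/EBP family as TTGCNNAA, for that of STAT factors as TTCNNNGAA, for that of RUNX factors as TGTGGT, for that of ETS factors as GAGGAAGT and for the TATA box as TATAAA. Capitals mark the matches. Alox5 (chr6:116461179-116461428, minus strand) holds 1 GATAA, which 22.6% of 32817 windows in the table hold. Ltc4s (chr11:50238533-50238782, minus strand) holds ACCACA, the reverse complement of TGTGGT, found in 14.0% of windows.
Alox5: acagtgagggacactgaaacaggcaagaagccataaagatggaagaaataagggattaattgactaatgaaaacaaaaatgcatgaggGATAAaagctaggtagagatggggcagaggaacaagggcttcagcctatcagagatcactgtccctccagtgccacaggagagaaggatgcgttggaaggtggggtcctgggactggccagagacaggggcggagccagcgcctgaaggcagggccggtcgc
Ltc4s: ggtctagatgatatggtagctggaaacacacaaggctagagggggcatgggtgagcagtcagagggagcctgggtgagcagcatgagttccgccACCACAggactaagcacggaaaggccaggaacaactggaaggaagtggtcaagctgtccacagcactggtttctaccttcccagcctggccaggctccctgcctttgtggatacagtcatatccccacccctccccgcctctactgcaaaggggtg
Ptgs1 (chr2:36230176-36230425, plus strand) holds GAGGAAGT, found in 2.44% of windows, and Ptgs2 (chr1:150099781-150100030, plus strand) holds ACCACA and TTGCGCAA, a form of TTGCNNAA, which 9.57% of windows hold.
Ptgs1: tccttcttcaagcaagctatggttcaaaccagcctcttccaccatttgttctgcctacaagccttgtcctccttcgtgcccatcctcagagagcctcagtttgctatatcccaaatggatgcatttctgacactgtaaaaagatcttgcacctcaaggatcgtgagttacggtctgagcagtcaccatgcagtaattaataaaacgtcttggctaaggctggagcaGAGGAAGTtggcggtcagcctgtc
Ptgs2: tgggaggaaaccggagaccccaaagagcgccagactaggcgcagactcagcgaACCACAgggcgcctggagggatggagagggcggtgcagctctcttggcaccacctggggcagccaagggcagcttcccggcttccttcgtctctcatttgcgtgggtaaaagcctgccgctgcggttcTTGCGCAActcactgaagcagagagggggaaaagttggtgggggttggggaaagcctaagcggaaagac
The window of Lta4h and that of Pla2g4a at the outer end of its span (chr1:149961291-149961540, minus strand) held none of these motifs. A second Pla2g4a window, at an internal start (chr1:149922440-149922689, minus strand), held GATAA in 2 places and TATAAA, which 12.4% of windows hold, in 1, and is not printed. In all, 8 of the 10 genes had an entry in the table. A match or its absence describes letters only.

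Both other lipoxygenases of the set were near zero in MA9+EV. Alox15 (ENSMUSG00000018924.6, chr11:70344147-70390538), whose product in mouse is a lipoxygenase acting on arachidonate and linoleate, had 149, 128 and 122 CPM in MA9+SETDB1 replicates 1, 2 and 3, against 0.206, 0.0415 and 0.101 CPM in MA9+EV. Counts in MA9+SETDB1 were 2668, 2095 and 2350, against 5, 1 and 2 in MA9+EV, so the arms stood far apart. The fitted change was 1077-fold (log2 10.07, SE 0.30, edgeR adjusted p = 2.34e-06), which put Alox15 among the 1.45% of tested genes with the largest change in either direction. The log2 change was 10.79 without MA9+EV replicate 1, which holds 5 of the 8 counts of that arm. Alox12 (ENSMUSG00000000320.10, chr11:70241457-70255380), the platelet-type 12-lipoxygenase, had 0 counts in all MA9+SETDB1 libraries and 2 counts in MA9+EV, in replicate 2, and was not tested.

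The cyclooxygenases moved in opposite directions. Ptgs1 (ENSMUSG00000047250.13, chr2:36216742-36258593), the constitutive cyclooxygenase-1, had 32.9, 18.6 and 19.9 CPM in MA9+SETDB1 replicates 1, 2 and 3, against 416, 192 and 193 CPM in MA9+EV. All MA9+SETDB1 libraries were below all MA9+EV libraries, and replicate 1 was the highest in both arms. The log2 change was -3.48 (SE 0.40, edgeR adjusted p = 0.000497). Ptgs2 (ENSMUSG00000032487.8, chr1:150100031-150108234), the inducible cyclooxygenase-2, had 2.29, 7.37 and 5.19 CPM in MA9+SETDB1, compared with 0.454, 0.996 and 0.856 CPM in MA9+EV. Replicate 1 was the lowest in both arms, and the arms did not overlap. The counts were 41, 121 and 100 in MA9+SETDB1, against 11, 24 and 17 in MA9+EV, and the change was 6.41-fold (log2 2.68, SE 0.53, edgeR adjusted p = 0.00495). With replicates 2 and 3 summed the log2 change was 2.58 and just missed the threshold (edgeR adjusted p = 0.0501). Hpgds (ENSMUSG00000029919.5, chr6:65117293-65144981), which makes prostaglandin D2 in mast cells among others, had 1, 2 and 0 counts in MA9+SETDB1 and 1, 2 and 0 in MA9+EV. At this depth the ratio of normalized counts was 1.27 with an exact 95% interval of 0.17 to 9.5, which covers counting error only, so no difference was detectable.

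**Figure D2:**
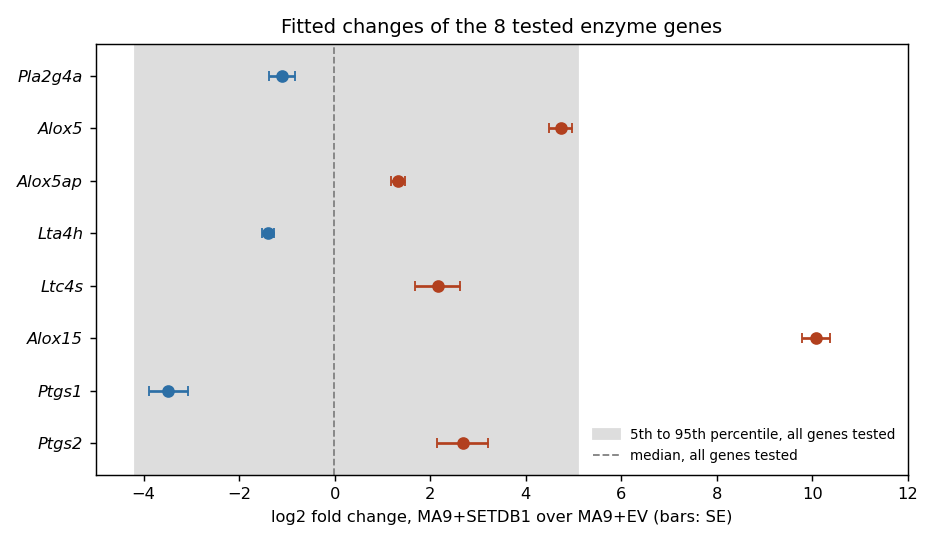
Log2 change of the 8 tested enzyme genes in MA9+SETDB1 over MA9+EV, with bars of 1 SE and the band between the 5th and 95th percentile of all tested genes. Alox15 lies outside that band, and Alox5, at 4.73, lies inside it below its upper edge of 5.1.

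Within a library, the ratio of counts of any 2 members compares libraries without needing their lengths. Alox5 counts were 3.48, 6.30 and 5.72 times those of Alox5ap in MA9+SETDB1 replicates 1, 2 and 3, against 0.522, 0.446 and 0.463 in MA9+EV. Lta4h counts were 0.181, 0.144 and 0.140 times those of Alox5 in MA9+SETDB1, against 9.67, 11.2 and 11.4 in MA9+EV. Both ratios thus differed between the arms in every library. Lta4h counts were 175, 451 and 387 times those of Ltc4s in MA9+SETDB1, against 3452, 2853 and 4751 in MA9+EV. Ptgs1 counts were 14.4, 2.53 and 3.84 times those of Ptgs2 in MA9+SETDB1, against 915, 192 and 225 in MA9+EV. In both of these pairs the MA9+SETDB1 ratios all lay below the MA9+EV ratios. For Lta4h over Alox5, Lta4h over Ltc4s and Ptgs1 over Ptgs2 this had to be so. The first gene lay below and the second above in every MA9+SETDB1 library, so the separation of these ratios is no further result. No test was run on the ratios.

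**Figure D3:**
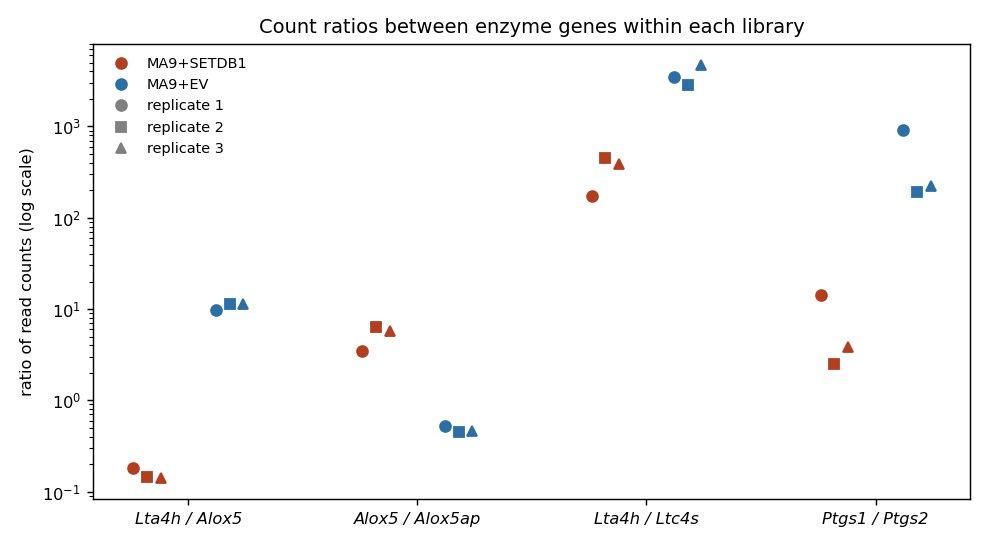
Ratio of counts between pairs of the enzyme genes in each library, on a log axis, with MA9+SETDB1 left of MA9+EV and points for libraries. In each of the pairs the libraries of the arms did not overlap, as for Alox5 over Alox5ap at 3.48 to 6.30 in MA9+SETDB1 and 0.446 to 0.522 in MA9+EV. For the other pairs this follows from the opposite changes of their genes.

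Pairs of the genes lie close together. Pla2g4a and Ptgs2 are neighbours on chromosome 1, 138.7 kb apart with no other protein-coding gene between, and changed in opposite directions (log2 -1.10 and 2.68). Alox12 and Alox15 lie 88.8 kb apart on chromosome 11 with Alox12e between. Beside Alox15, Pelp1, 2.3 kb away, had a log2 change of -0.34 (edgeR adjusted p = 0.0132), which missed the threshold without MA9+SETDB1 replicate 2 (edgeR adjusted p = 0.06) or 3 (edgeR adjusted p = 0.0571). Pelp1 also missed it with replicates 2 and 3 summed (edgeR adjusted p = 0.167). Arrb2, the next gene beyond it, was 313 CPM in MA9+SETDB1 and 111 CPM in MA9+EV (edgeR adjusted p = 0.00497). Of 17 nearest protein-coding neighbours of the set, 9 were tested, 1 was higher and 3 were lower, so that 4 of 9 passed, where 53.5% of all genes tested did. The higher one was Hal, 3.9 kb from Lta4h, with 59.0 CPM in MA9+SETDB1 and 1.13 CPM in MA9+EV (log2 5.69, edgeR adjusted p = 3.72e-06), a change opposite to that of Lta4h. Marchf8, 0.5 kb from Alox5, did not pass the test, with 87.9 CPM in MA9+SETDB1 and 85.2 CPM in MA9+EV (log2 0.04, edgeR adjusted p = 0.918), and without MA9+SETDB1 replicate 1 its log2 change was -0.45 (edgeR adjusted p = 0.00557). Overlapping genes listed by RefSeq are 1 long noncoding RNA at Alox5, 1 at Alox12 and 1 pseudogene at Alox15, and since no source names the strand setting of the counting, their reads may be uncertain.

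**Figure D4:**
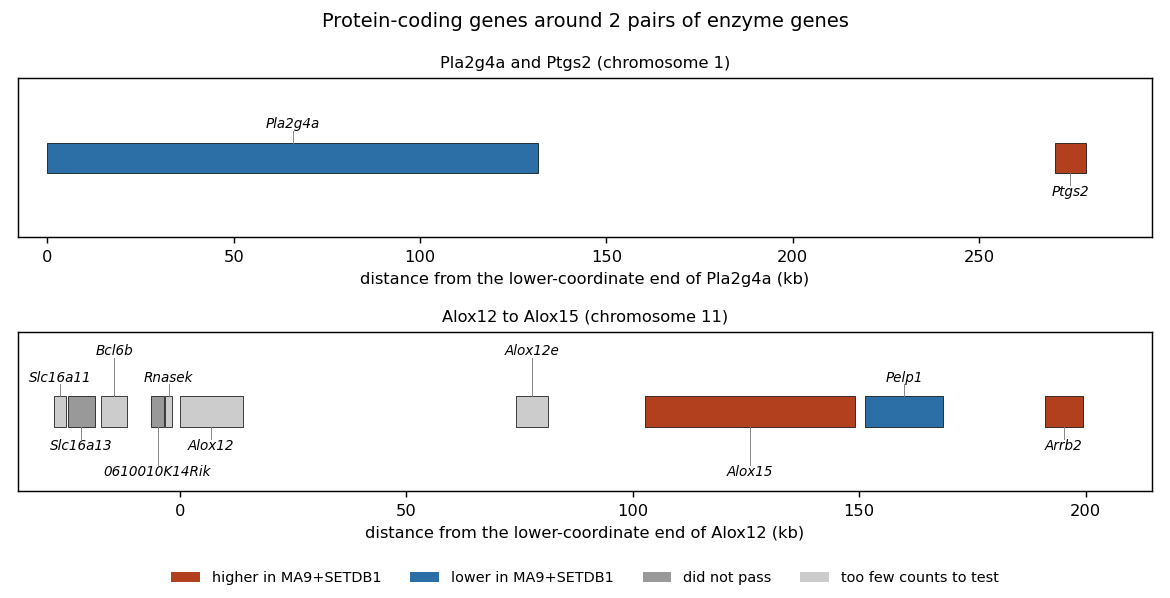
Stretches of the genome around 2 pairs of enzyme genes, with bars for gene spans. Distances are in kilobases from the lower-coordinate end of the first listed enzyme gene. Colour marks genes higher, lower, not called or with too few counts in MA9+SETDB1. Pla2g4a and Ptgs2 carry opposite changes, and Alox15 is higher with Alox12 untested.

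A list of 78 other genes of the pathway was examined, of which 50 were tested, 23 higher, 15 lower and 12 not called in MA9+SETDB1, with a median log2 change of 0.33, against -0.01 over all genes tested. Over all genes tested 27.4% were higher and 26.2% lower, which is the background for this count and for those of its sub-lists, and genes that passed the filter on low counts through a single arm are among them. Among other phospholipases and lipases, 5 of 12 tested were higher and 4 lower. Of the higher ones Pla2g4c missed the threshold without MA9+EV replicate 2 (edgeR adjusted p = 0.0617) or with replicates 2 and 3 summed (edgeR adjusted p = 0.0674). Pla2g5, a secreted phospholipase, had 0 counts in MA9+SETDB1 and 436 counts in MA9+EV, at least 114-fold lower when computed against 3 counts over the arm (edgeR adjusted p = 0.000195). Pla2g3, also secreted, had 117 counts in MA9+SETDB1 and 2 counts in MA9+EV, a ratio of 74.5 with an exact 95% interval of 20.2 to 622. Pla2g7, which breaks down platelet-activating factor, had 2.79 ± 0.987 CPM in MA9+SETDB1 and 0.0611 ± 0.0537 CPM in MA9+EV (SD, n = 3 each). Mgll, which frees arachidonate from monoacylglycerol, was 79.9 ± 23.9 CPM in MA9+SETDB1 and 20.8 ± 1.08 CPM in MA9+EV (SD, n = 3 each; log2 1.94, edgeR adjusted p = 0.000416).

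Of the genes listed for the return of fatty acids to lipids, arachidonate among them, 6 of 9 tested were higher and 2 lower. Of the higher ones Acsl3 missed the threshold without MA9+SETDB1 replicate 2 (edgeR adjusted p = 0.0642) or 3 (edgeR adjusted p = 0.0629). Acsl3 also missed it with scaling by total count alone (edgeR adjusted p = 0.0654) or replicates 2 and 3 summed (edgeR adjusted p = 0.101). Lpcat2, an acyltransferase, was 271 ± 40.7 CPM in MA9+SETDB1 and 7.92 ± 3.48 CPM in MA9+EV (SD, n = 3 each; log2 5.09, edgeR adjusted p = 4.76e-05). Lpcat1, its relative, was lower, with 3.52 ± 0.435 CPM in MA9+SETDB1 and 52.4 ± 6.35 CPM in MA9+EV (SD, n = 3 each; log2 -3.89). Lpcat3 and Mboat7 were also higher, with log2 changes of 1.52 and 2.24. Among other lipoxygenases and hydrolases the 1 gene tested, Alox8, had 981, 314 and 296 counts in MA9+SETDB1 and 0 in every MA9+EV library (edgeR adjusted p = 0.0012), with most of them in replicate 1. Alox12e, also without counts in MA9+EV, had 38, 9 and 13 counts in MA9+SETDB1, and Ephx2, a hydrolase of fatty acid epoxides, had 2, 169 and 194 counts in MA9+SETDB1 and 5, 1 and 2 in MA9+EV, with replicate 1 of MA9+SETDB1 apart.

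Leukotriene conversion and export genes other than those in the set numbered 8 tested, 4 higher and 2 lower. Of the higher ones, Mgst3 missed the threshold without MA9+SETDB1 replicate 2 or 3 or MA9+EV replicate 3 (edgeR adjusted p = 0.0679, 0.0583 and 0.0865). Mgst3 also missed it with scaling by total count alone (edgeR adjusted p = 0.08) or replicates 2 and 3 summed (edgeR adjusted p = 0.11). Ggt1 missed it without MA9+SETDB1 replicate 2, without MA9+EV replicate 2 or with replicates 2 and 3 summed (edgeR adjusted p = 0.0577, 0.0604 and 0.107). Mgst2, a glutathione transferase that can make leukotriene C4, was 2.76 ± 0.940 CPM in MA9+SETDB1 and 164 ± 15.6 CPM in MA9+EV (SD, n = 3 each; log2 -5.89, edgeR adjusted p = 1.09e-05), a direction opposite to that of Ltc4s. Mgst1, a relative, changed by log2 -3.66. Cyp4f18, a hydroxylase that in mouse inactivates leukotriene B4, was 149 ± 19.6 CPM in MA9+SETDB1 and 1.90 ± 0.105 CPM in MA9+EV (SD, n = 3 each; log2 6.29, edgeR adjusted p = 1.19e-06). Abcc1, which exports leukotriene C4, was 384 ± 111 CPM in MA9+SETDB1 and 168 ± 24.5 CPM in MA9+EV (SD, n = 3 each; log2 1.19, edgeR adjusted p = 0.00561), and missed the threshold with replicates 2 and 3 summed (edgeR adjusted p = 0.0548).

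Prostanoid synthases and reductases other than Hpgds had 8 tested, 2 higher and 2 lower. Tbxas1, thromboxane synthase, was 202 ± 2.10 CPM in MA9+SETDB1 and 59.9 ± 6.20 CPM in MA9+EV (SD, n = 3 each; log2 1.75, edgeR adjusted p = 3.65e-05). Akr1c18, a reductase, had 27.2, 197 and 204 CPM in MA9+SETDB1 and 2.81, 3.24 and 4.48 CPM in MA9+EV (log2 5.35, edgeR adjusted p = 0.00153), with replicate 1 low in MA9+SETDB1. Ptges, prostaglandin E synthase, changed by log2 -1.87, and Ptges2 by log2 -0.50 (edgeR adjusted p = 0.0321). Both miss the threshold with replicates 2 and 3 summed, and Ptges2 also misses it without MA9+SETDB1 replicate 2 (edgeR adjusted p = 0.0905), MA9+EV replicate 2 (edgeR adjusted p = 0.097) or MA9+EV replicate 3 (edgeR adjusted p = 0.106), and with no filter on low counts (edgeR adjusted p = 0.0595).

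Of the prostanoid breakdown and transport genes 4 were tested and 2 were lower. Hpgd, which inactivates prostaglandins, had 1.68, 1.89 and 1.40 CPM in MA9+SETDB1 replicates 1, 2 and 3, against 531, 2247 and 2269 CPM in MA9+EV (log2 -9.99, SE 0.75, edgeR adjusted p = 8.28e-05). The arms lay far apart, with MA9+EV replicate 1 below the rest of its arm. Ptgr1, a reductase that in several species breaks down leukotriene B4 and prostaglandins, had 13.8, 18.4 and 19.4 CPM in MA9+SETDB1, compared with 357, 309 and 281 CPM in MA9+EV (log2 -4.20, edgeR adjusted p = 8.57e-06).

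The receptors were changed in both directions, 5 of 8 tested higher and 3 lower. The lower ones include Ptger1, a prostaglandin E receptor, whose call (log2 -1.36, edgeR adjusted p = 0.0391) was lost in 8 of the 14 alternatives, among them the replicate block (edgeR adjusted p = 0.0789), DESeq2 (adjusted p = 0.111) and leaving out MA9+SETDB1 replicate 2 or 3 or MA9+EV replicate 2 or 3 (edgeR adjusted p of 0.141, 0.135, 0.153 and 0.081). Those higher were the leukotriene B4 receptors Ltb4r1 and Ltb4r2, and the prostanoid receptors Ptger3, Ptger4 and Ptgir. Ptger3 had 156, 121 and 116 CPM in MA9+SETDB1, compared with 0.826, 0.290 and 0.403 CPM in MA9+EV (log2 7.98, edgeR adjusted p = 8.36e-06). Ltb4r2 was 15.5 ± 2.25 CPM in MA9+SETDB1 and 0.301 ± 0.205 CPM in MA9+EV (SD, n = 3 each; log2 5.63, and 6.35 without MA9+EV replicate 1). Ltb4r1 was 148 ± 42.5 CPM in MA9+SETDB1 and 30.8 ± 15.0 CPM in MA9+EV (SD, n = 3 each; log2 2.26). Of the other lower ones, Ptger2 had 1 count in MA9+SETDB1 and 279 counts in MA9+EV, and Cysltr1, the receptor of cysteinyl leukotrienes, was 1.22 ± 0.733 CPM in MA9+SETDB1 and 21.1 ± 1.67 CPM in MA9+EV (SD, n = 3 each; log2 -4.11, edgeR adjusted p = 3.00e-04).

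**Figure D5:**
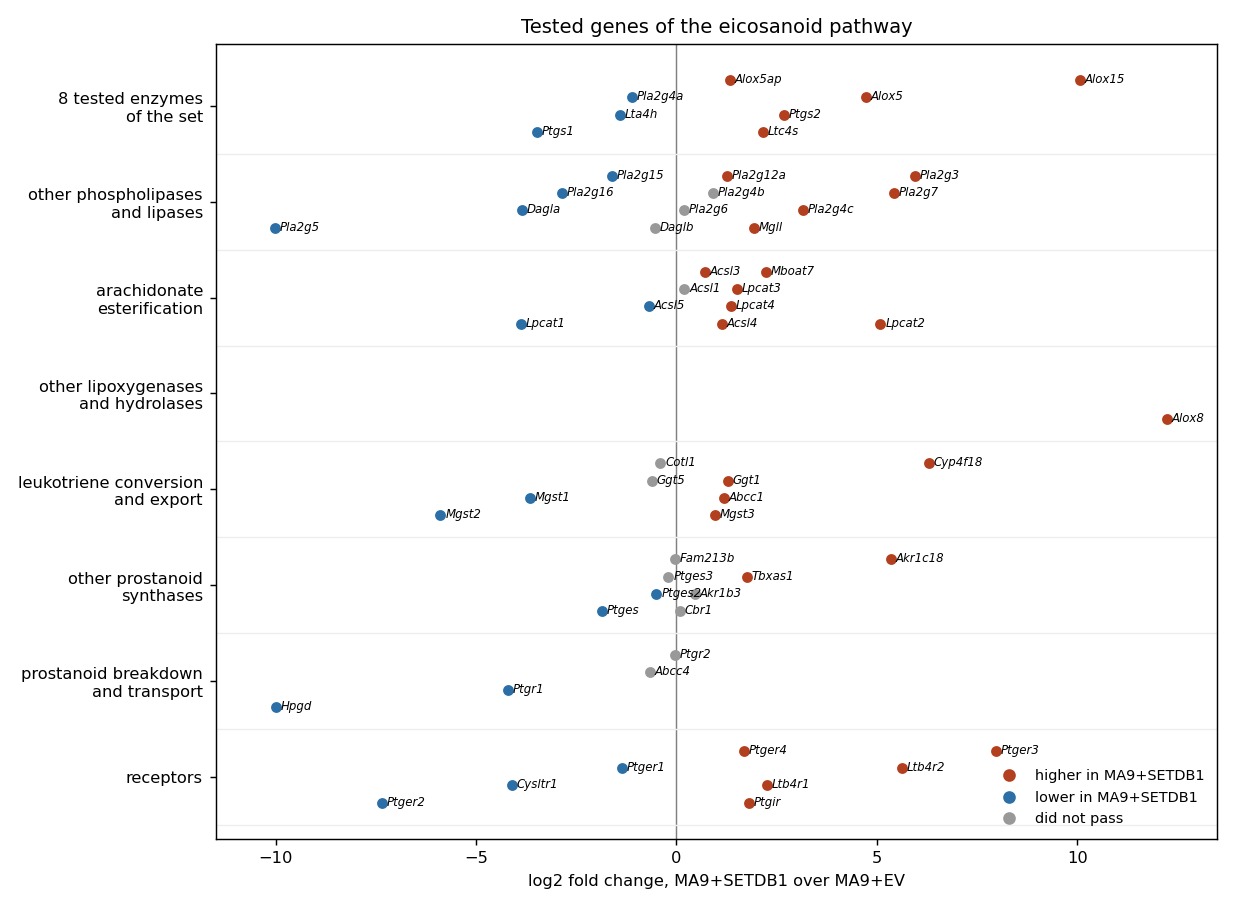
Log2 change of each tested gene of the pathway lists, grouped by role, with 1 point a gene and MA9+SETDB1 over MA9+EV. Red points passed the test as higher, blue as lower and grey did not pass; the receptors include 5 red and 3 blue points, and Pla2g5 and Alox8, with no counts in one arm, sit at fitted values that are no bounds.

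Several lists of markers of cell types that could be present in such cultures also differed between the arms, some upward, some downward and some mixed. The part of these cell types in the results was not tested. As background for the counts below, 27.4% of all genes tested were higher and 26.2% lower. Markers that passed the filter on low counts through a single arm are among those counted. Summed levels of 14 mast cell and basophil markers, among them Prss34, Hdc and Ms4a2, were 11840 to 13036 CPM in MA9+SETDB1 and 162 to 203 CPM in MA9+EV. Of 11 tested, 10 were higher and 1 lower, and Mcpt4 and Mrgprb1 were at 0 in every library. The lower one was Kit, with 1.07 ± 1.22 CPM in MA9+SETDB1 and 114 ± 3.01 CPM in MA9+EV (SD, n = 3 each). Its log2 change was -6.72 (edgeR adjusted p = 0.000232). All 10 eosinophil markers, among them Gata1, Siglecf and Ear1, were higher, with sums of 439.7 to 471 CPM in MA9+SETDB1 and 5.09 to 7.35 CPM in MA9+EV. Gata1 alone held 221, 241 and 252 CPM of these sums in MA9+SETDB1 replicates 1, 2 and 3. Of 14 neutrophil markers, among them Elane, Mpo and Prtn3, 12 were lower and 1 higher, with sums of 111 to 210.2 CPM in MA9+SETDB1 and 14338 to 18926 CPM in MA9+EV. For the monocyte and macrophage list, among them Ly6c2, F13a1 and Adgre1, 3 of 11 tested were higher and 7 lower, with sums of 793 to 1808 CPM in MA9+SETDB1 and 2479 to 4247 CPM in MA9+EV. Adgre1, which was higher (log2 6.38), held 373, 1223 and 1172 CPM of these sums in MA9+SETDB1 replicates 1, 2 and 3. Ly6c2 and F13a1 were lower, with log2 changes of -2.64 and -10.5. Erythroid markers, among them Hba-a1, Hbb-bt and Hbb-bs, were higher in 9 of 9 tested, with sums of 1332 to 1652 CPM in MA9+SETDB1 and 0.578 to 1.26 CPM in MA9+EV. Megakaryocyte and platelet markers, among them Itga2b, Gp1ba and Vwf, had 4 of 6 tested higher and 1 lower. Their sums were 527 to 666 CPM in MA9+SETDB1 and 2.73 to 3.48 CPM in MA9+EV. Of these sums Itga2b held 644, 518 and 532 CPM in MA9+SETDB1 replicates 1, 2 and 3. Lymphoid markers, among them Cd79b, Cd3g and Cd79a, summed to 3.58 to 5.42 CPM in MA9+SETDB1 and 0.913 to 4.01 CPM in MA9+EV, with 7 of 10 at 0 in every library. The stromal and endothelial list, among them Pecam1, Pdgfrb and Lepr, summed to 162 to 217 CPM in MA9+SETDB1 and 231 to 366 CPM in MA9+EV, with 1 of 3 tested higher, 2 lower, and Cdh5 and Kdr at 0 in every library.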

How the data were processed

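RNA was sequenced from 6 libraries with strand-specific poly-A selection, per the labels' protocols, in a series of 26 samples whose other 20 are not analysed here. The authors deposited whole-number read counts per gene, not normalized. The submitters' processing notes name GRCm38, STAR 2.6.0c and HTSeq 0.11.0 among other tools, without roles. Summary lines, 24.6% to 26.3% of entries, were left out. Symbols matched 54079 of 54146 identifiers.

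From the counts, genes passing filterByExpr (10 counts, 3 libraries) were tested with edgeR 4.0.16 quasi-likelihood F-tests (TMM, Benjamini-Hochberg over 12986 genes), with SEs derived from F. In simulated counts over 12786 genes, 98% of changes of 2 and 42.4% of changes of 1 on the log2 scale were recovered. The simulation changed few genes, gave all genes the same spread and drew independent replicates. In the data 53.5% of genes changed and replicates 2 and 3 lay close together. These shares are thus no measure of power here. Intervals and floors (3 counts) cover counting error only. Same-numbered libraries deviated together (r of 0.257, 0.196 and 0.169 across genes), but so did replicates 2 and 3 across numbers (0.177 and 0.203), so the values show replicate 1 apart from the others and do not tell 2 from 3. A replicate block was fitted as an alternative, among 14. The enzymes, pathway and marker lists and motifs were chosen with earlier results of these data known. Named were the set, the called pathway genes with the smallest p per list and the 3 markers per list with the highest CPM. The choice of markers by CPM is not corrected for length. Other pathway genes were named too, among them calls lost in alternatives and the untested Alox12e and Ephx2. Mcpt4, Mrgprb1, Cdh5 and Kdr were named as markers without counts. Arrb2, Hal, Marchf8 and Pelp1 were named by position, and Kit as the 1 lower gene of its marker list. The planned comparison of levels per transcript length was not run, since no transcript lengths were used here. The result for 1 marker gene is not reported here.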

Additional observations from a re-analysis of the deposited data

How the results depend on the processing

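Over the 14 alternatives no called enzyme gene changed direction. Setdb1, Alox5, Alox5ap, Ltc4s, Lta4h, Ptgs1 and Alox15 stayed past the threshold in each, and Pla2g4a and Ptgs2 in all but 1. With replicates 2 and 3 of each arm summed into 1 library, Pla2g4a was -0.88 (edgeR adjusted p = 0.111) and Ptgs2 2.58 (edgeR adjusted p = 0.0501) on the log2 scale, and 2292 genes were higher and 1928 lower, with fewer samples. Without replicate 1 of both arms, an alternative chosen after seeing the data, 5285 genes were lower, and the enzyme genes were again 5 higher and 3 lower. With the replicate block the 8 enzyme calls were kept and 3791 genes were higher and 3761 lower. The log2 change of Alox15 ranged from 9.65 to 10.79. The neighbour Marchf8, not called, turned to -0.02 with upper-quartile scaling, -0.15 with library size only, -0.07 with the replicate block, and -0.40 without replicate 1 of both arms, and ranged from -0.45 (without MA9+SETDB1 replicate 1) to 0.25 over single libraries left out. Among other pathway genes the higher count ranged from 18 to 27 and the lower count from 11 to 20. The alternative per transcript length was not run. Counts of 3 in a library are 0.124 to 0.183 CPM, which limits Hpgds and Alox12.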
